A study of Mus musculus with 24 samples.

Results

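Of the 260 testis-specific mRNA probes that the study's supplementary sheets list for its cell lines, 72 were detected in the germ cell lines GC-1 or GC-2 and not in the teratocarcinoma line F9. These 72 probes, of 60804 transcript probes on the array, stand for 70 gene symbols, since Usp44 and Mdm1 each have a pair of probes among them. A probe was selected on its detection flags: the scanner software had to mark it as well above background on all 3 arrays of GC-1, of GC-2 or of both, but not on all 3 F9 arrays, and Rcc1, Stra8, Star and Zfp42 were left out. Detection in the 3 lines was thus used to choose the members and is described below without a test. The sheets themselves list transcripts that the study chose as specific to testis among 5 tissues, so high testis levels and weak signals in the other tissues were also fixed by the choice.

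Spermatogenesis carries germ cells from mitotic spermatogonia through meiotic spermatocytes to haploid spermatids, which build a flagellum, an acrosome and a compacted nucleus. Many genes used late in this process are silent in other cells, and others have testis transcripts beside their widely used ones. GC-1 and GC-2 are immortalised mouse lines derived from male germ cells and are used as models of spermatogonia and spermatocytes, whereas F9 is an embryonal carcinoma line that stands for an early, pluripotent state.

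Testis, brain, heart, kidney and liver came from male ICR mice aged 8 weeks, and F9, GC-1 and GC-2 were grown in DMEM with fetal bovine serum, F9 on gelatin. No group carried a gene alteration or a treatment by its labels, and F9 was kept without retinoic acid, which differentiates these cells. Each group had 3 arrays described as biological replicates, without a note on whether cultures of 1 line were grown independently, so the spread within a line may be partly technical. Whole testis mixes germ and somatic cells, and fewer cells of a type and less RNA per cell cannot be told apart in it.

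The level of a probe is given as the log2 of its background-corrected intensity over the 75th percentile of its array, so that 0 marks that percentile and a difference of 1 is 2-fold. The lowest level that an array marked as well above background lay between -4.87 and -4.44 in testis, between -3.39 and -2.69 in the GC lines and between -2.94 and -2.14 in F9. The 75th percentile itself was an intensity of 65.5 to 105.1 on the F9 arrays and of 98.2 to 146.2 on the GC arrays. F9 replicate 1 had the lowest of the 3 F9 limits, and the replicate 1 arrays of all 8 groups lay on 1 slide, apart from the other replicates. Of 33 marker genes in 7 lists for testicular, embryonal carcinoma and fibroblast cells, the sheets tied 3 to a probe. The spermatogonial gene Stra8 was at a level of 0.10 ± 0.14 in testis and 1.25 ± 0.34 in F9 (SD, n = 3) and well above background on no GC array. Zfp42, a marker of pluripotent cells, was at 4.65 ± 0.39 in F9 and well above background on no GC array. Star, which carries cholesterol into mitochondria in steroid-making cells, was well above background on every GC array, at -2.23 ± 0.28 in GC-1 and -1.55 ± 1.40 in GC-2. It was at 2.58 ± 0.34 in testis. In F9 it was at -2.31 ± 1.12, close to GC-1, and well above background on 1 array. The lines were not checked against further germ cell markers, since symbols were read from these sheets alone.

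The promoters of 5 members are shown because these genes had the largest lower bounds over F9 among those with 1 entry in the RefSeq table. They belong to a gene detected in both GC lines (2610528A11Rik), to a pair detected in GC-1 alone (Gm14137 and A630023A22Rik) and to a pair detected in GC-2 alone (1700009N14Rik and Speer2). Each run of 300 bases is read 5′ to 3′ from RefSeq on GRCm38.p6, 250 bases before to 50 after the annotated start. The windows are chr14:37110052-37110351, minus strand for 2610528A11Rik, chr2:119174259-119174558, plus strand for Gm14137, chr14:34102705-34103004, minus strand for A630023A22Rik, chr4:39450043-39450342, plus strand for 1700009N14Rik and chr16:69863695-69863994, minus strand for Speer2. Capitals mark the letters TATAAA in the first sequence and CCAAT on either strand in the others.
2610528A11Rik: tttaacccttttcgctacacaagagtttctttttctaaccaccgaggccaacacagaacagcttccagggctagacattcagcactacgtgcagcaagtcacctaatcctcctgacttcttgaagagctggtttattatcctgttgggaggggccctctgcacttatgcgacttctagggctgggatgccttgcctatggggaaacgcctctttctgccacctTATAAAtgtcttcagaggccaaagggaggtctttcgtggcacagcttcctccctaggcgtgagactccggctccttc
Gm14137: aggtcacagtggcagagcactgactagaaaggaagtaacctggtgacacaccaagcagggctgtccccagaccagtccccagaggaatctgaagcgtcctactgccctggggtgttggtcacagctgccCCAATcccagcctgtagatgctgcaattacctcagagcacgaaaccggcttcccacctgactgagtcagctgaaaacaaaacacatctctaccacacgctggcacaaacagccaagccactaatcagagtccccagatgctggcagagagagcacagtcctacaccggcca
A630023A22Rik: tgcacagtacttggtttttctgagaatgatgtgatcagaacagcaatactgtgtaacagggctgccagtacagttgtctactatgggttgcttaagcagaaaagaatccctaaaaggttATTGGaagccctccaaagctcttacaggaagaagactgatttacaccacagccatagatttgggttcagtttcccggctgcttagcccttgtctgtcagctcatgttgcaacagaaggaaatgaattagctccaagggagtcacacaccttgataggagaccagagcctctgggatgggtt
1700009N14Rik: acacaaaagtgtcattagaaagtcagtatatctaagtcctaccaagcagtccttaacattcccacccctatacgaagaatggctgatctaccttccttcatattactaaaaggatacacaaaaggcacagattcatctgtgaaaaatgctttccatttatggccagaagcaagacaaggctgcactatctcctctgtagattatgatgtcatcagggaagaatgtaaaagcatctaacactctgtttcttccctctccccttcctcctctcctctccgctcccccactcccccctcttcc
Speer2: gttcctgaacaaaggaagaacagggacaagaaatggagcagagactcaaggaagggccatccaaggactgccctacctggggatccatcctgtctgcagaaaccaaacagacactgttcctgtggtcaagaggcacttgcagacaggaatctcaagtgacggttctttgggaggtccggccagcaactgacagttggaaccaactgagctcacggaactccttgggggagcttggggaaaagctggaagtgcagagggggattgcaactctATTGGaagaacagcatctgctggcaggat

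2610528A11Rik alone of the 5 held TATAAA, and 1700009N14Rik held none of the 5 motifs searched. The CpG ratio, the observed number of CG pairs over that given by the C and G content, was 0.41 for 2610528A11Rik, 0.22 for Gm14137, 0.06 for A630023A22Rik, 0.16 for 1700009N14Rik and 0.15 for Speer2. Its median over all 32851 promoters of the table was 0.38, so 4 of the 5 lay below that median. Among all members, 55 of 70 genes had 74 promoters in the table. Their median CpG ratio was 0.61, above the 0.38 of all promoters and unlike most of the 5 shown. It was 0.72 for genes detected in both GC lines, 0.32 for those in GC-1 alone and 0.47 for those in GC-2 alone. TATAAA, searched on both strands as were all motifs, was in 13.5% of the members' promoters and in 13.6% of all promoters. CCAAT was in 44.6% of them against 37.4%, the GC box GGGCGG in 45.9% against 35.7%, and GTTGCC, a part of the X-box read by RFX factors, in 10.8% against 12.5%. The cAMP response element TGACGTCA was in 5 promoters (6.76%, against 1.79% of all), which belong to Nup214, Spag4, Gm648, Gm8267 and Iqcf5. None of these motifs lies within another, promoters of 1 gene can overlap, and a match is a description of the letters only.

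Of the 72 members, 36 were detected in both GC lines, 19 in GC-1 alone and 17 in GC-2 alone. All of them were well above background on the 3 testis arrays, with a median level of 0.48 and a range from -2.32 to 9.22. In the GC lines the levels were low: the median was -2.02 in GC-1 and -2.19 in GC-2, little above the detection limit, and the highest were 1.25 and 1.64. The median level in F9 was -2.90. For comparison, the 104 mRNAs of the same sheets detected in all 3 lines had a median of 0.07 in GC-1, with 0.18 in GC-2 and 0.00 in F9, and the 58 detected in F9 alone had a median of -0.42 in F9. Their testis medians were 0.18 and 1.47. No member was well above background on all 3 arrays of brain, heart, kidney or liver, which the choice of the sheets favoured, and 27 were so on none of these 12 arrays.

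**Figure D1:**
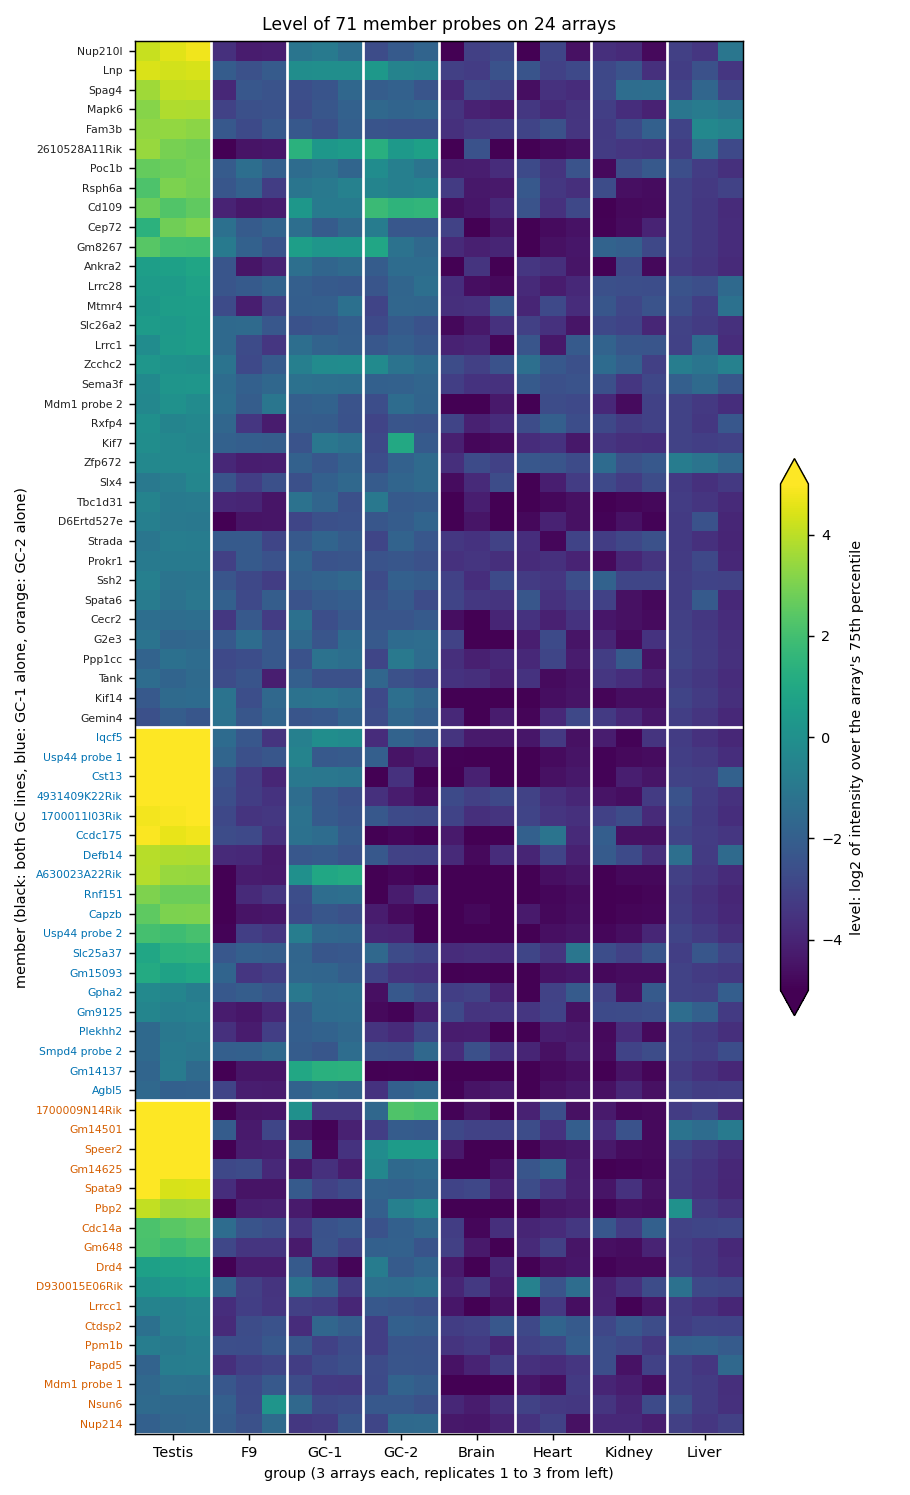
Each row is a member probe and each column an array, with colour for the level (log2 of intensity over the 75th percentile of the array; levels past 5 are drawn as 5). All members but 1 are drawn (71 rows). Row names are black for 35 members detected in both GC lines, blue for the 19 in GC-1 alone and orange for the 17 in GC-2 alone, each block ordered by testis level. The testis columns are brightest for nearly all rows, and the few bright cells in the GC columns belong to genes such as Cd109, Gm14137 and 1700009N14Rik.

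How far the members were from detection in F9 varied. On F9, 32 members were well above background on no array, 25 on 1 array and 15 on 2 arrays. Most of these flags came from 1 array: F9 replicate 1 marked 39 members, replicate 2 marked 7 and replicate 3 marked 9. A weaker flag of the same software, for a signal significantly above background, was set on all 3 F9 arrays for 48 members. All 3 arrays of the brighter GC line lay above all 3 F9 arrays for 43 members and overlapped them for 29. The same held for 69.4% of all 5846 array probes detected in a GC line and not in F9, and since detection chose the members nothing is read from this.

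Just inside the rule were 15 members with 2 F9 arrays well above background, namely Rsph6a, Kif14, Sema3f, Poc1b, Cep72, G2e3, Smpd4 probe 2, Strada, Mdm1 probe 2, Slc25a37, Gemin4, Lrrc28, Slc26a2, Nsun6 and Nup214. Mdm1 probe 2 was at -1.38, -2.05 and -1.07 on the F9 arrays, at -1.96, -1.84 and -2.45 in GC-1 and at -2.62, -1.46 and -1.77 in GC-2, so F9 overlapped both GC lines. For Cep72, G2e3, Strada, Slc25a37, Lrrc28, Slc26a2 and Nup214 the F9 arrays likewise overlapped each GC line that detected them. Nsun6, which methylates tRNA, was at -1.96, -2.72 and 0.22 in F9, where replicate 3 stood apart. Just outside the rule were Acr, Gm581, Sept10, Eef1g and Rad18 probe 1, detected on all 3 F9 arrays at mean levels of -1.77, -1.76, -1.74, -1.68 and -1.64. Acr, which encodes the acrosomal protease acrosin, was at -1.55, -1.88 and -1.88 in F9. With 1 common detection level of -2.14 for the 9 cell line arrays, an alternative chosen after seeing the data, the rule found 36 probes, of which 31 were members. The other 41 members were lost, mostly because no GC line reached that level on 3 arrays (40 members). Eef1g, Gm581, Mum1l1, Rad18 probe 1 and Rpl24 entered.

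Where no F9 array detected a member, F9 gives only an upper limit, and the fold over F9 is a lower bound: the mean of the GC line against, for each F9 array, the higher of its detection limit and the level of the probe. A bound above 1 was reached for 30 members, with a median of 1.6-fold and 11 bounds under 1.5-fold. It was at least 5-fold for 6 members, and those were Cd109, Gm14137, 1700009N14Rik, 2610528A11Rik, A630023A22Rik and Speer2. Cd109 was at least 16.6-fold higher in GC-2 than in F9, and Gm14137 was at least 12.7-fold higher in GC-1. The bound was at least 9.99-fold for 1700009N14Rik in GC-2, at least 9.31-fold for 2610528A11Rik in GC-2, at least 8.63-fold for A630023A22Rik in GC-1 and at least 6.44-fold for Speer2 in GC-2. The bound of 1700009N14Rik depended on single arrays, with 24.2-fold without GC-2 replicate 1, 6.24-fold without replicate 2 and 6.59-fold without replicate 3, which were computed after seeing the data. With normexp background correction these 6 bounds were smaller, from 2.38-fold for Speer2 to 5.19-fold for Cd109. Nup210l, Pbp2 and Usp44 probe 2 had bounds of 2.04-fold to 2.7-fold, which fell to between 1.28-fold and 1.44-fold with normexp.

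**Figure D2:**
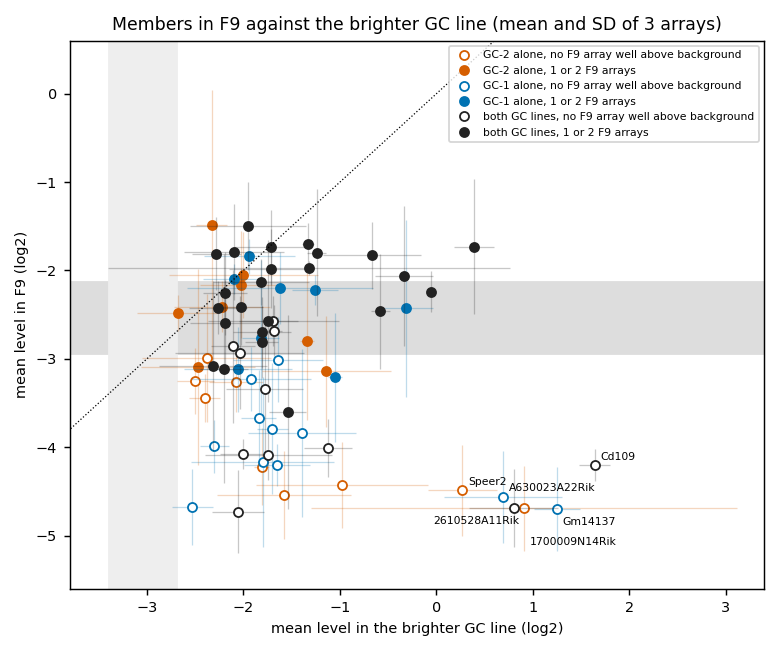
Each point is a member (71 drawn), with its mean level in the brighter of the GC lines that detected it on the horizontal axis and its mean level in F9 on the vertical axis (both log2, error bars SD of 3 arrays). Open points had no F9 array well above background, the shaded bands span the detection limits of the GC and F9 arrays, and the dotted line marks equal levels. Most points crowd beside the bands, and 6 open points from Speer2 to Cd109 stand apart at GC levels above 0.

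Among the 36 members detected in both GC lines, the highest levels included those of 2610528A11Rik, Cd109, Gm8267, Lnp, Zcchc2, Rsph6a and Poc1b. 2610528A11Rik encodes a secreted peptide that attracts immune cells through the receptor Gpr15. It was at 1.40, 0.30 and 0.49 in GC-1, at 1.31, 0.42 and 0.68 in GC-2, at -5.19, -4.47 and -4.41 in F9, and at 3.45, 2.95 and 2.84 in testis. All 6 GC arrays were thus far above the 3 F9 arrays and below testis. Cd109, a membrane-anchored protein that binds TGF-beta and its receptors, was at 0.30, -0.90 and -0.91 in GC-1 and at 1.82, 1.52 and 1.58 in GC-2. In F9 it was at -4.00, -4.34 and -4.25, and in testis at 2.77, 2.29 and 2.55. The GC-2 arrays lay below testis on this scale, and the GC-1 arrays lay below all those of GC-2.

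Lnp, now named Lnpk, shapes junctions of the endoplasmic reticulum. It was at -0.09, -0.04 and -0.05 in GC-1 and at 0.34, -0.52 and -0.64 in GC-2, against -2.10, -2.51 and -2.12 in F9. The lines thus separated clearly although 1 F9 array was well above background. Zcchc2, a zinc finger gene, was at -0.68, -0.19 and -0.15 in GC-1 and at -0.22, -1.19 and -1.50 in GC-2, and its F9 replicate 1 (-1.21) lay within the GC-2 range. Gm8267 was at 0.62, 0.24 and 0.31 in GC-1 but at 0.90, -1.25 and -1.63 in GC-2, where replicate 1 stood apart.

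The probe levels of these 36 members were compared between GC-1 and GC-2, a contrast the rule did not use for members detected in both. In a limma fit of the 12 testis and cell line arrays, with Benjamini-Hochberg adjustment over all probes, 1 member was called higher in GC-1 and 1 was called lower. Among the 22951 array probes detected on all 6 GC arrays, 7.37% were called higher and 8.39% lower. With 36 members, 1 call in each direction is too few to set against these shares, and nothing is read from it. Cd109 was lower in GC-1 by a log2 difference of -2.15 (SE 0.31, adjusted p = 0.000624), which is 4.43-fold. With normexp the difference was -1.48, or 2.79-fold. The sign held in both slides, with differences of -1.52 between the replicate 1 arrays and -2.46 between the others. Nup210l, a relative of the nuclear pore glycoprotein Nup210, was at -1.10, -0.89 and -1.38 in GC-1 and at -2.68, -2.16 and -1.78 in GC-2. It was higher in GC-1 by 1.08 (SE 0.29, adjusted p = 0.0306), with 1.58 and 0.83 within the slides. The groups of Nup210l did not overlap, but over the alternative limma fits its adjusted p ran from 0.0164 to 0.401. It missed the threshold under quantile normalization (0.0905) and normexp (0.182, with a difference of 0.39), with the 6 GC arrays alone (0.0697) or all 24 arrays (0.401), and without GC-1 replicate 1 or 2 or GC-2 replicate 1 or 2 (0.0754 to 0.122). The adjusted p of Cd109 ran from 1.63e-05 to 0.0128 over the same fits.

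The other 34 members were not called, 33 of them with log2 differences between -0.82 (Poc1b) and 1.05 (Gm8267), and 7 of the 36 had an unadjusted p of 0.05 or less. Among these 34, D6Ertd527e (-0.58, adjusted p = 0.24 in the limma fit) was called lower in GC-1 with the slide as a block (adjusted p = 0.0319), with differences of -0.59 and -0.58 within the slides, and under quantile normalization (-0.65, adjusted p = 0.0128). For 17 of the 34, the whole 95% interval of the difference lay within 2-fold, and for the rest a difference of 2-fold or more was not excluded by the interval, in both directions for Kif7 (-1.94 to 1.42). Poc1b, a centriole protein, differed by -0.82 (interval -1.45 to -0.19, adjusted p = 0.108 in the limma fit). For 2610528A11Rik the difference was -0.07, with an interval of -0.85 to 0.70. Gm8267 had the wide interval of -0.18 to 2.28, and without GC-2 replicate 1 its difference was 1.83 with an adjusted p of 0.00969 in the same fit.

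**Figure D3:**
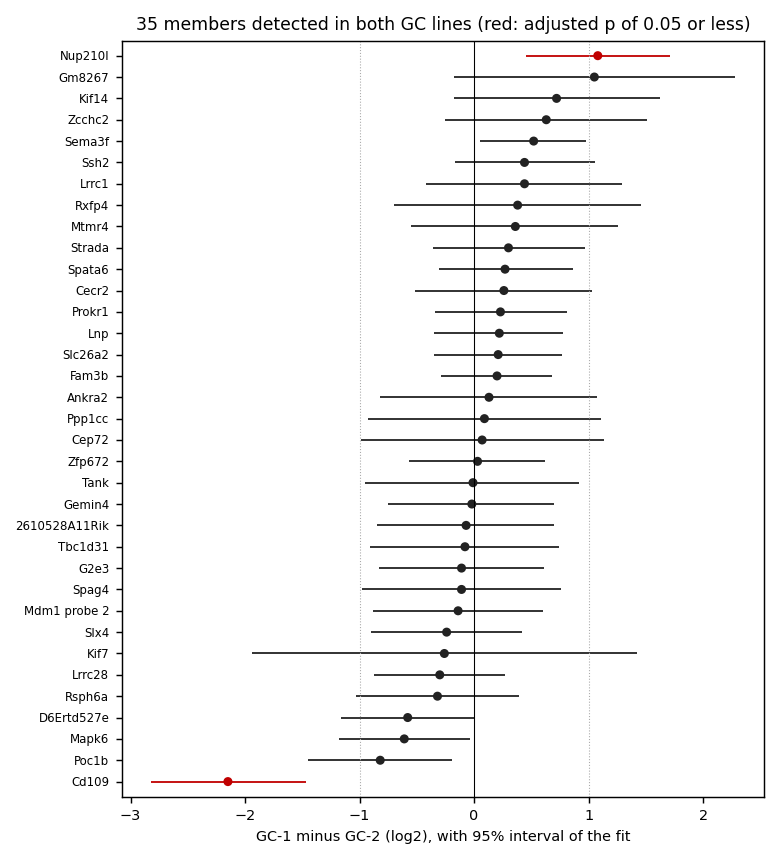
Points show the difference between GC-1 and GC-2 (log2) of 35 of the 36 members detected in both lines, and bars its 95% interval in the limma fit. Nup210l at the top and Cd109 at the bottom, in red, passed an adjusted p of 0.05. The other 33 differences lie nearer to 0, and most of their intervals cross it. The dotted lines mark 2-fold in either direction.

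Detected in GC-1 alone were 19 members. On all 3 GC-1 arrays 13 of them lay above all 3 GC-2 arrays, as did 73.1% of all array probes detected in GC-1 and not GC-2, and 10 were well above background on no GC-2 array. Gm14137, a gene on chromosome 2, was at 0.98, 1.34 and 1.43 in GC-1 and at -5.69, -4.95 and -5.14 in GC-2. GC-1 was at least 18.8-fold higher than GC-2 for this probe. The bounds between the GC lines are given on this scale alone, without normexp. With normexp the bound of Gm14137 over F9 fell from 12.7-fold to 4.51-fold. The testis levels of Gm14137, -1.73, -0.84 and -1.56, lay below those of GC-1. A630023A22Rik was at 0.00, 0.95 and 1.13 in GC-1, at -5.59, -4.81 and -4.99 in GC-2 and at 3.88, 3.45 and 3.41 in testis, with a bound of at least 12.8-fold over GC-2.

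Weaker signals made up the rest of the GC-1 set. Cst13, a cystatin, from a family of cysteine protease inhibitors, was at -0.98, -1.05 and -1.12 in GC-1 and at -5.34, -3.57 and -4.95 in GC-2, at least 3.84-fold apart. Usp44 encodes a deubiquitinase of the mitotic checkpoint, and its probe 2 was at -0.75, -1.66 and -1.75 in GC-1 and at -3.97, -4.01 and -5.04 in GC-2. In testis this probe was at 2.04, 1.88 and 2.10. Probe 1 was at 6.51, 6.38 and 6.53 in testis, at -0.51, -2.21 and -2.13 in GC-1, at -1.97, -4.49 and -4.19 in GC-2 and at -1.75, -2.54 and -2.33 in F9. Replicate 1 of GC-2 and of F9 lay above the lower pair of GC-1 arrays for probe 1, whereas for probe 2 no array of GC-2 or F9 reached GC-1. The bounds over GC-2 were 2.54-fold for the coiled-coil gene Ccdc175, 2.53-fold for Gm9125 (now Tdpoz9), 2.28-fold for the RING finger gene Rnf151 and 2.22-fold for Plekhh2. They were 1.91-fold for 4931409K22Rik (now Iqca1l) and 1.38-fold for Capzb, a subunit of the actin capping protein. The other 9 probes had 1 or 2 GC-2 arrays well above background and belong to Iqcf5, 1700011I03Rik (now Ccdc192), Gm15093, Usp44 (probe 1), Agbl5, Defb14, Gpha2, Slc25a37 and Smpd4 (probe 2). For 5 members of the GC-1 set the mean levels of the lines differed by less than 1 on the log2 scale.

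Detected in GC-2 alone were 17 members. For 8 of them all 3 GC-2 arrays lay above all 3 GC-1 arrays, as for 60.3% of all array probes detected in GC-2 and not GC-1, and for 9 the mean levels differed by less than 1 on the log2 scale. 4 members were well above background on no GC-1 array, which were Pbp2, Gm14625, Lrrcc1 and Gm14501. Pbp2, a testis member of the phosphatidylethanolamine-binding family, was at -1.99, -0.66 and -0.29 in GC-2 and at -4.29, -4.79 and -4.78 in GC-1, at least 3.7-fold apart. The bounds were 3.31-fold for Gm14625, 1.38-fold for the centrosomal gene Lrrcc1 and 1.32-fold for Gm14501.

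Some members of the GC-2 set were uneven among the arrays of GC-1, of GC-2 or of both. 1700009N14Rik was at -1.65, 2.26 and 2.10 in GC-2, so that replicate 1 lay far below the others, and at 0.01, -3.44 and -3.45 in GC-1, where replicate 1 lay above the others. The F9 arrays read -5.25, -4.42 and -4.41. Speer2, of a family of testis genes with glutamate-rich proteins, was at -0.14, 0.48 and 0.48 in GC-2 and at -2.07, -4.83 and -3.53 in GC-1, and GC-1 replicate 1 was again the brightest. Drd4, a dopamine receptor, was at -2.16, -4.17 and -4.88 in GC-1 and at -0.81, -2.14 and -1.79 in GC-2, with replicate 1 the brightest array of each line. The replicate 1 arrays shared a slide, and its part in these differences was not tested. Over all members, replicate 1 of GC-1 was over 2-fold above the mean of the other GC-1 arrays for 9 and over 2-fold below it for 7. For replicate 1 of GC-2 the same counts were 8 above and 15 below. The remaining GC-2 members were Gm648, Spata9, D930015E06Rik (now Tmem131l), Cdc14a, Mdm1 (probe 1), Nsun6, Nup214, Papd5 (now Tent4b), Ctdsp2 and Ppm1b, each with 1 or 2 GC-1 arrays well above background. Mdm1 probe 1 was at -2.77, -1.81 and -2.07 in GC-2, at -2.67, -3.30 and -3.33 in GC-1 and at -2.30, -2.75 and -2.19 in F9.

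**Figure D4:**
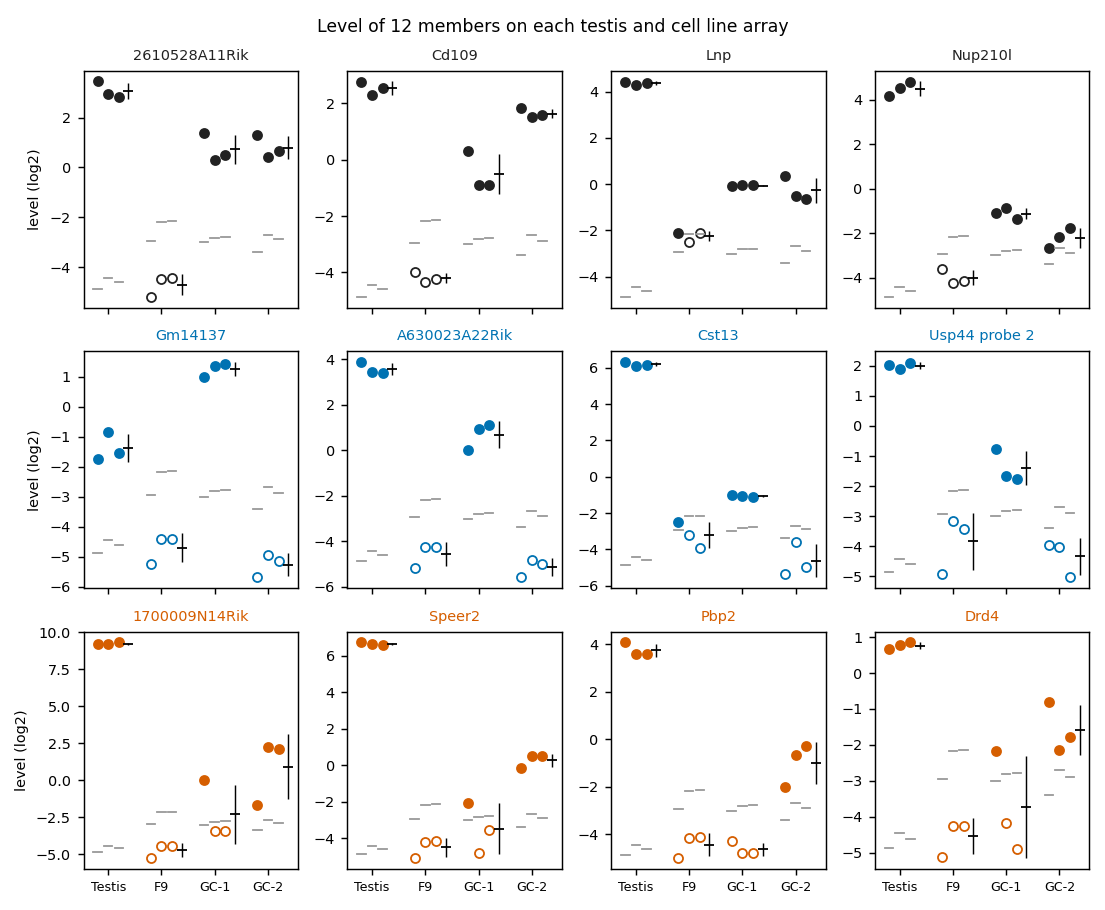
Circles show the level (log2) of 12 members on each testis, F9, GC-1 and GC-2 array, replicates 1 to 3 from left, filled where the array marked the probe as well above background. Grey ticks give the detection limit of each array, and the black bars the mean and SD of 3 arrays. Cd109 is higher in GC-2 than in GC-1, Gm14137 exceeds its testis level in GC-1, and the GC arrays of 1700009N14Rik are spread over several units.

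By role, 13 probes of 12 genes belonged to the centrosome, cilium and microtubules, 9 of them detected in both GC lines. Their median level was -0.29 in testis, -1.83 in GC-1, -1.95 in GC-2 and -2.26 in F9, and 4 had no F9 array well above background. Rsph6a, a radial spoke protein of the sperm flagellum, was at -1.13, -0.97 and -0.62 in GC-1, at -0.48, -0.68 and -0.58 in GC-2 and at -2.31, -1.90 and -3.17 in F9. Poc1b was at -1.48, -1.25 and -1.74 in GC-1 and at -0.15, -0.70 and -1.17 in GC-2, against -2.14, -1.40 and -1.96 in F9. Rsph6a was thus above F9 on every GC array, whereas Poc1b in GC-1 overlapped F9. Kif14, a kinesin of cytokinesis, was at -1.24, -1.14 and -1.33 in GC-1, and its F9 replicate 1 (-1.20) fell inside that range. Kif7, a ciliary kinesin of Hedgehog signalling, was at -2.85, 1.04 and -2.15 in GC-2, where replicate 2 stood far above the others. The list also held Cep72, Spag4, Spata6, Tbc1d31, Agbl5, Cdc14a, Lrrcc1 and both probes of Mdm1, at mean levels under -1 in both GC lines.

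None of the 9 microtubule members in both lines was called between GC-1 and GC-2, where 7.37% of array probes were called higher and 8.39% lower. Of 18 other genes of this kind in the sheets, 15 were detected in all 3 lines and 2 in F9 alone. Their median level was -0.75 in GC-1, -0.37 in GC-2 and 0.51 in F9, and of the 15 in both GC lines none was called higher in GC-1 and 2 were called lower. Those were Cdk5rap2, a centrosome protein (-1.13, adjusted p = 0.0291 in the limma fit), and the kinesin Kif15 (-0.77, adjusted p = 0.0465 in the same fit). Detection in F9 set these genes apart from the members, so nothing is read from their F9 levels.

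The nucleus, RNA and DNA list held 15 probes of 14 genes, 9 of them in both GC lines, with median levels of -0.69 in testis, -1.82 in GC-1, -2.10 in GC-2 and -2.93 in F9. It included Nup210l, Zcchc2, Usp44, Rnf151, Cecr2, Slx4, G2e3, Gemin4, Ankra2, Zfp672, Nsun6, Nup214 and Papd5. Zfp672, a zinc finger gene, was at -1.88, -2.28 and -1.84 in GC-1, at -2.64, -1.89 and -1.55 in GC-2 and at -3.89, -4.21 and -4.15 in F9, so no GC array overlapped F9. Gemin4, of the SMN complex that assembles spliceosomal particles, was at -2.36, -2.23 and -1.77 in GC-1 and at -1.25, -2.34 and -1.79 in F9, which overlapped.

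The 7 phosphatase and kinase genes were all weak in the lines, with median levels of -2.03 in GC-1, -2.25 in GC-2 and -2.68 in F9. Mapk6, an atypical MAP kinase, had the highest testis level of the list (3.18, 3.80 and 3.76) and was at -2.66, -2.32 and -1.91 in GC-1 and at -1.62, -1.77 and -1.67 in GC-2. Ppp1cc, a catalytic subunit of protein phosphatase 1 with a sperm isoform, was at -2.47, -1.22 and -1.37 in GC-1 and at -2.92, -0.94 and -1.47 in GC-2, and replicate 1 was the lowest array of both lines. Mtmr4, Ssh2 and Strada were in both lines and Ctdsp2 and Ppm1b in GC-2 alone. The files give no probe sequences, so which transcript of a widely used gene such as Ppp1cc, Capzb or Mapk6 a probe reads is not known here.

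The list of secreted proteins, receptors and their adaptors held 10 members, 6 of them in both lines. Its medians were -2.19 in GC-1, -2.44 in GC-2 and -3.10 in F9. 2610528A11Rik, though it encodes a secreted peptide, was placed among the other named genes and is not counted here. Within the list, all but Cd109 had mean levels under -1 in both GC lines. Sema3f, a secreted guidance cue, was at -1.28, -1.33 and -1.40 in GC-1, at -1.95, -1.88 and -1.73 in GC-2 and at -1.47, -1.95 and -1.66 in F9. GC-1 was above F9 on each array by little, and GC-2 overlapped it. Defb14, Gpha2, Fam3b, Prokr1, Rxfp4 and Tank completed the list. The 8 genes of membranes, transport and cytoskeleton were Lnp, Lrrc1, Slc26a2, Capzb, Plekhh2, Slc25a37, Smpd4 and Pbp2, with medians of -2.02 in GC-1, -2.35 in GC-2 and -2.41 in F9. Smpd4 probe 1 was detected in all 3 lines (means -1.78 in GC-1, -2.04 in GC-2 and -1.28 in F9) while its probe 2, the member, missed detection on 1 F9 array, so the membership of Smpd4 depends on the probe.

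The 19 other named genes and gene models held the extremes. Their median testis level was 3.58, and 11 of them had no F9 array well above background. Gm14501 (now H2al1k, an X-linked histone H2A variant of spermatids) was at 7.81, 8.12 and 8.13 in testis and at -3.15, -2.09 and -2.16 in GC-2. Iqcf5 was at 7.78, 7.86 and 8.00 in testis and at -0.63, -0.10 and -0.22 in GC-1. Gm14625, also on the X chromosome, was at 6.72, 6.26 and 6.32 in testis and at -0.37, -1.60 and -1.45 in GC-2. All 3 probes were among the brightest members in testis and low in the lines. Gm14501, Speer2 and Gm9125 belong to families with closely similar copies, and a probe can read more than 1 copy. D6Ertd527e and Lrrc28 were in both GC lines near the limit.

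Against testis, the median difference of the members was -2.03 in GC-1 and -1.91 in GC-2 (log2), a direction their choice favoured, and 13 and 12 members were within 2-fold of testis. The scaling matters here: over all probes the median difference was 1.43 for GC-1 minus testis and 1.35 for GC-2 minus testis on the log2 scale used, and -0.05 and -0.19 when the percentile was taken over probes detected on all 24 arrays. Of the 55 members detected in GC-1, 25 were at least 5-fold below testis, as were 5.57% of all array probes detected in both groups. In GC-2 they were 23 of 53, against 5.65%. With the other percentile these counts were 41 and 45, and the array shares 12.9% and 13.0%. The testis arrays chose the members, so nothing is read from the contrast of members and array. On the scale used, 54 of 55 members in GC-1 and all 53 in GC-2 lay below testis relative to the median of all probes. The median differences were -3.46 and -3.27.

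The lowest against testis were Gm14501 (1439-fold in GC-2), 1700009N14Rik (319-fold in GC-2), Iqcf5 (292-fold in GC-1), Usp44 probe 1 (273-fold in GC-1) and Gm14625 (190-fold in GC-2). Without GC-2 replicate 1 the value of 1700009N14Rik was 132-fold, below the 187-fold of 4931409K22Rik and the 152-fold of Cst13 in GC-1, and it was 510-fold without replicate 2 and 483-fold without replicate 3. At the other end, Gm14137 was the member above testis relative to the median of all probes on the scale used. GC-1 exceeded testis by 2.62 on the log2 scale, by 1.15 with the percentile over probes detected everywhere and by 1.20 relative to the median of all probes. Agbl5, which removes glutamates from tubulin, Gemin4 and Kif14 also had a mean above testis in a GC line (log2 differences of 0.11 to 0.53). With that other percentile they were below it (-1.37 to -0.95). With median scaling, quantile normalization and normexp they were above it (0.12 to 0.70). Relative to the median of all probes under quantile normalization, Kif14 in GC-1 (0.28) and Gemin4 in GC-2 (0.08) were among those also above testis.

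**Figure D5:**
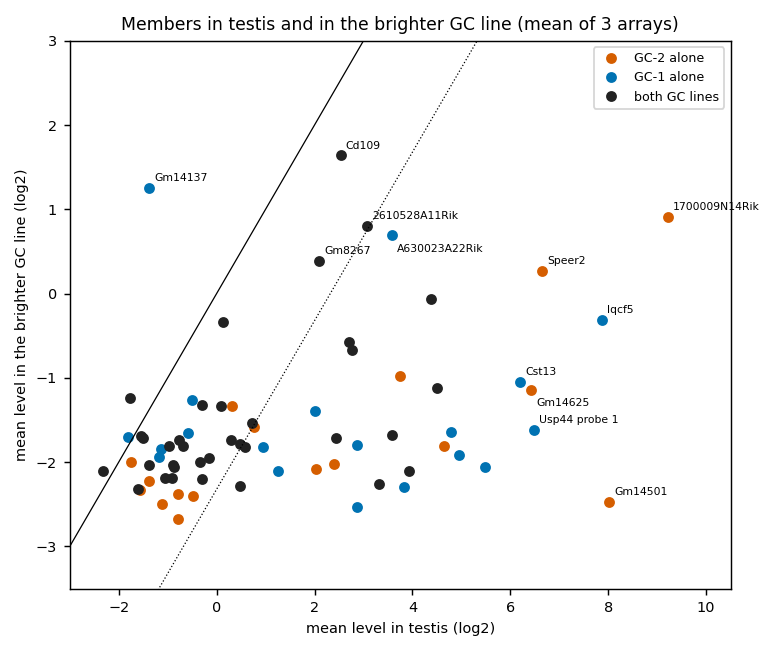
Each point is a member (71 drawn), with its mean testis level on the horizontal axis and its mean level in the brighter detected GC line on the vertical axis (both log2, 3 arrays each). The solid line marks equal levels and the dotted line a 5-fold lower GC level. Gm14137 stands alone above the solid line by more than 2 units, and the members brightest in testis, such as Gm14501, lie far below the dotted line.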

How the data were processed

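Total RNA of 24 samples was labelled with Cy3 and hybridised to Arraystar mouse lncRNA and mRNA arrays. The authors deposited 1 scanner file per array, with background-subtracted and detrended spot intensity and detection flags from Agilent Feature Extraction, and a matrix that was checked to hold the same intensity values (largest relative difference 0.00023). Neither holds values normalised across arrays. GeneSpring GX is named in the methods for that step, with settings not given in the sources used here. Probe names and symbols came from the supplementary sheets, whose values were not used.

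Levels are the log2 intensity minus the log2 of the 75th percentile of that array, taken over its 60804 transcript probes. GC-1 and GC-2 were compared with limma 3.58.1 (lmFit and eBayes) in R 4.3.3 on 12 arrays, without a block, with Benjamini-Hochberg adjustment over all probes and a threshold of 0.05. The fit was also run on simulated data with independent noise per array and no slide effect, so that run does not bear on leaving out the block. Deviations of same-numbered GC-1 and GC-2 arrays correlated at 0.508, 0.379 and 0.404 over 22951 probes. Differently numbered arrays of 1 slide correlated at 0.339 (GC-1 replicate 3, GC-2 replicate 2) and 0.281 (GC-1 replicate 2, GC-2 replicate 3). Replicate 1 against the others gave -0.476 to -0.361, so these values do not show true pairs. The replicate numbers, taken from the titles, were treated as paired in an alternative with the replicate block. There 1 member was called higher in GC-1 and 1 lower, as without the block. Replicate 1 of every group shared a slide, and so the pairing and the slide are not separate. Tables were handled with Python 3.11.15, pandas 2.3.3 and numpy 2.4.6.

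All 70 symbols were matched to RefSeq, 7 of them through an older name. With arrays there is no read depth, and 3 arrays per group set the precision. One member is counted throughout but is not reported by name. By rule the text names 7 of the 8 brightest members in both GC lines, members called between the lines, members with 2 F9 arrays detected, 5 probes just outside the rule, symbols with several probes, the 5 lowest against testis and examples of each role list, with values on each array for part of them. Other members, such as the brightest of 1 line, were chosen after their values were seen. The members, role lists and marker lists were chosen with earlier results of these data known. Alternatives were other scalings, normexp background correction, a filter on dim probes, slide and replicate blocks, other sets of arrays, the methods' t-test, other detection rules and leaving out arrays.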

Additional observations from a re-analysis of the deposited data

How the results depend on the processing

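Replicate numbers as a block and the scaling over the median or over commonly detected probes left the calls between GC-1 and GC-2 at 1 higher and 1 lower. Nup210l was the call that varied: no member was called higher in GC-1 (0) with the 6 GC arrays alone, with all 24 arrays, under quantile normalization, under normexp, or with a 5-fold minimum added, and leaving out 1 array gave 0 to 1. That count was 0 without GC-1 replicate 1, GC-1 replicate 2 or GC-2 replicate 2, and without GC-2 replicate 1 the 1 call was Gm8267 in place of Nup210l. Normexp could not be run as planned, since the mean spot signal is not in the files used here, and used the median signal, chosen after seeing the data. Without replicate 1 of every group, 3 were higher and 2 lower. Lower in GC-1 were 2 under quantile normalization and with the slide as a block (D6Ertd527e beside Cd109 in each), and 0 with the 5-fold minimum. The methods' t-test at its unadjusted threshold gave 2 higher and 4 lower, and after Benjamini-Hochberg 1 higher and 0 lower. Cd109 stayed called under all 17 limma settings. For 2610528A11Rik, called under none, the difference of -0.07 turned to 0.14 without GC-1 replicate 2, 0.04 without GC-1 replicate 3 and 0.18 without GC-2 replicate 1, in a range from -0.41 to 0.18 over single arrays left out. The rule found 72 probes, 24 with the weaker flag for a significant signal, 32 where no F9 array was well above background, 36 where both GC lines were required, and 36 with 1 common detection level. Leaving out 1 array gave 63 to 72, the lowest without F9 replicate 2. Leaving out a GC array cannot remove a member. Members at least 5-fold below testis numbered 41 (GC-1) and 45 (GC-2) when the percentile was taken over probes detected on all 24 arrays, against 25 and 23. Leaving out 1 array gave 24 to 26 in GC-1 and 21 to 25 in GC-2. The causes of these changes were not tested. Signals near the background limit what F9 and the GC lines can show for most members.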
